A study of Mus musculus with 3 samples.

Results

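The genes described here are the semaphorins, their plexin receptors and the neuropilin co-receptors, as measured by RNA-seq in cultured cortical neurons from wildtype CD1 mice. They were chosen by symbol alone, as all protein-coding genes named Sema3 to Sema7, Plxna to Plxnd, Nrp1 or Nrp2, which gave 31 of the 54232 genes in the count files. Of these, 20 are semaphorins, 9 are plexins and 2 are neuropilins. Levels are given as CPM, a gene's share of a library's scaled total counts, and a filter of at least 1 CPM in at least 1 library left 28 of them, and the 3 under it were Sema3b, Sema3g and Plxnb3.

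By its title, the study concerns supramolecular scaffolds and neuronal maturation. The labels give 3 groups of the same cells with 1 library each. IKVAV PA is a scaffold of peptide amphiphiles, lipid-tailed peptides that assemble into fibres, here with a short motif known from laminin. IKVAV PA + PEDOT-S has in addition a component that the title calls PS2 and the library name PEDOT-S_OH, taken here to be a sulfonated form of the conducting polymer PEDOT. PDL is the control, an abbreviation that the labels do not spell out. The treatment field reads peptide amphiphile for all 3 libraries, the control included, so groups came from titles and library names. The labels give no age, days in culture or number of animals. Each library is repeat 3 of its group. With 1 library per group there is no replicate check, no test between groups and no p-value, and every ratio below compares libraries and not conditions.

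The IKVAV PA library held 124425958 counts, against 79057998 with PEDOT-S and 78993105 in the control. All 8 pan-neuronal markers were measured, and their summed level lay between 7574 and 7878 CPM. Other cell types differed more between the libraries. Summed astrocyte markers ranged from 241 CPM in IKVAV PA to 407 in PDL, and summed cell cycle genes from 34.5 in IKVAV PA + PEDOT-S to 114 in PDL. Slc1a2 made up much of the astrocyte sum and varied little, at 161, 153 and 169 CPM in IKVAV PA, IKVAV PA + PEDOT-S and PDL. The median log2 ratio of the 10 astrocyte markers against PDL was -1.27 in IKVAV PA and -0.84 with PEDOT-S. Gfap went the other way and was highest with PEDOT-S (0.497, 1.39 and 0.402 CPM in the same order). Bulk RNA cannot tell fewer cells of a type apart from less RNA per cell.

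Semaphorins are guidance proteins that share an extracellular sema domain, and they steer axons, dendrites and migrating neurons. Class 3 members are secreted and mostly signal through a neuropilin joined to a class A plexin, while the other vertebrate classes are membrane-bound and mostly bind plexins directly. Plexins carry a GTPase-activating domain inside the cell, which acts on small GTPases and thereby on adhesion and the cytoskeleton. In the developing cortex these proteins repel or attract axons, orient dendrites and limit synapse number.

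The upstream sequences of 3 genes are shown because these genes stand near opposite ends of the range of levels. Sema7a was the most abundant of the 31 genes per length, Sema3d the lowest of the 28 measured, and Plxnb3 lay under the filter. Sema3g, not shown, was the lowest of the 31. Each run holds the 250 bases before the RefSeq start (GRCm38.p6, plus strand), with every CG pair in capitals. They lie at chr9:57939862-57940111 for Sema7a, chr5:12382916-12383165 for Sema3d and chrX:73756853-73757102 for Plxnb3.
Sema7a: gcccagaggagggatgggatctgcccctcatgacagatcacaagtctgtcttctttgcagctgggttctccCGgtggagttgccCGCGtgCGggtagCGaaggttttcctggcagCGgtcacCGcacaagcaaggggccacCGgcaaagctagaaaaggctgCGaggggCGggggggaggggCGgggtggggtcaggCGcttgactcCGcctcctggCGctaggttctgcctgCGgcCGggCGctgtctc
Sema3d: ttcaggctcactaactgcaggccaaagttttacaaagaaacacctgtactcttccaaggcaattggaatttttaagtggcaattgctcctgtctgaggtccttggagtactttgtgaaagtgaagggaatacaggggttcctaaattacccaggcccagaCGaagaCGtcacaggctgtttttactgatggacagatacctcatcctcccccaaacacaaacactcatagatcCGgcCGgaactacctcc
Plxnb3: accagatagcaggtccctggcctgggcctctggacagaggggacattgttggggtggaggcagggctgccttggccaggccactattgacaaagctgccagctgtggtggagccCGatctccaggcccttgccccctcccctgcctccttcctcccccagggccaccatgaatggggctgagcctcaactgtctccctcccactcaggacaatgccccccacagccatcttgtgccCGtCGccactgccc
The Sema7a window held 17 CG pairs, the Sema3d window 4 and the Plxnb3 window 3. At least as many were present in 23.5%, 62.2% and 71.0% of all 32851 windows of this length in the table. RefSeq windows matched 26 of the 31 genes, some with several starts. Taking the richest window of each gene, the number ranged from 2 to 39 with a median of 16.5, against a median of 6 over the 27025 genes of the table taken the same way. Unlike the families, those genes were not limited to protein-coding ones, so the medians are not of like sets. The number of CG pairs did not order the levels. Sema5a also had 17 CG pairs but only 2.30 CPM per kb, while Sema4f had 4 pairs at 13.4 CPM per kb. Sema3g had 8 pairs at 0.0269 CPM per kb. The motif is the letters CG, which read the same on the other strand, and its count is a description of these windows.

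Levels are compared between genes as normalised CPM per kb of merged exons, and they spanned from 0.911 for Sema3d to 54.7 for Sema7a among the measured genes (means of the 3 libraries). Semaphorins made up 45.4% to 46.8% of the summed level per kb, plexins 47.8% to 49.4% and neuropilins 5.21% to 5.40%. Ligands and receptors thus kept nearly the same proportions in every library. The proportions themselves depend on the length used. Nrp1, for example, stood at 10.05 CPM per kb of merged exons and 27.3 per kb of its longest coding transcript. Across libraries the 28 genes had a median highest-to-lowest ratio of 1.159 and a largest one of 1.359 (Sema5b). The median over all 13884 genes compared was 1.135. Among genes with a mean of at least 10 CPM it was 1.103 over all of them and 1.157 over the 27 genes of these families at that level, a difference that was not tested.

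**Figure D1:**
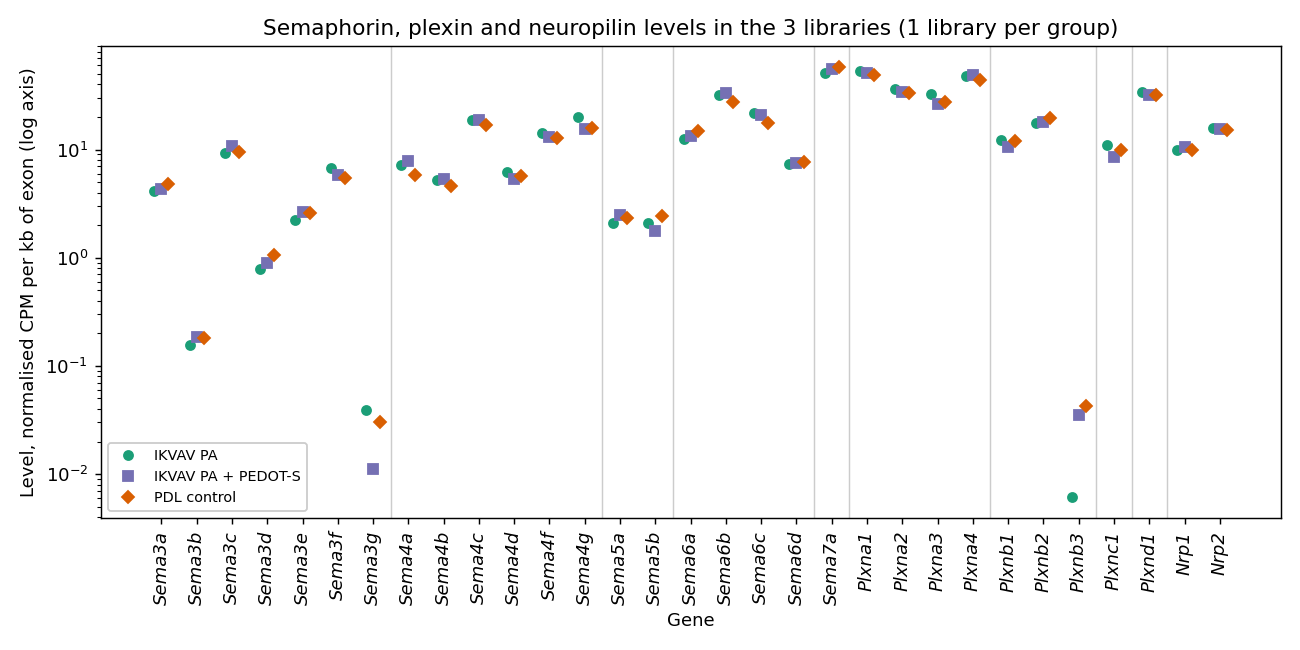
Level of each of the 31 genes in normalised CPM per kb of exon (log axis), with 1 point for each of the 3 libraries and vertical lines between families. The 3 points nearly coincide for most genes, whereas Sema3b, Sema3g and Plxnb3 lie far below the rest.

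No measured gene of the families differed by more than 1.5-fold beyond counting error in any of the 3 comparisons. In IKVAV PA against PDL 0 of 28 were higher and 0 lower, where 0.540% of all genes compared were higher and 3.41% lower (3.95% in either direction). With PEDOT-S, 0 of 28 were higher and 0 lower than in PDL, beside 0.447% and 3.75% of all genes (4.19%). Between the scaffolds 0 were higher and 0 lower with PEDOT-S, beside 0.339% and 2.02% (2.36%). A count of 0 in 28 is close to these background shares and is not a result about the families. The 95% counting interval of every ratio lay wholly inside 1.5-fold, in all 84 cases, against 85.3% of all genes in IKVAV PA against PDL, 83.3% with PEDOT-S relative to PDL and 86.2% between the scaffolds. The share of all genes with intervals inside 1.5-fold in each of the 3 comparisons was 78.2%, and 96.6% of the 9272 genes with a mean of at least 10 CPM, a level that 27 of the 28 reached. Counts of the measured genes ran from 606 to 83262, and the intervals cover counting error only, not differences between cultures.

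Smaller differences often exceeded counting error, a rule added after the 1.5-fold rule made no call. In IKVAV PA against PDL the interval lay above equal levels for 16 of 28 and below for 9. Over all genes compared these shares were 28.1% and 28.9% (57.0% in either direction), and over genes with a mean of at least 10 CPM 31.9% and 29.0% (61.0%). With PEDOT-S, 12 lay above PDL and 11 below, against 28.6% and 28.5% of all genes (57.1%) and 37.3% and 25.3% of the more abundant ones (62.6%). Between the scaffolds 10 lay above and 13 below with PEDOT-S, against 31.4% and 28.5% of all genes (59.9%) and 39.7% and 27.7% of the more abundant ones (67.4%). The balance between the scaffolds depends on the processing. It was 14 above and 8 below with a trend on GC content and length removed, and 13 above and 12 below under DESeq2 size factors. The median log2 ratio of the 28 was 0.08, 0.01 and -0.01 in this order of comparisons, and that of all genes compared was 0.00, -0.00 and 0.01. For the 28 genes, the sign of the median with PEDOT-S depends on the scaling, and it was -0.01 relative to PDL under total counts and 0.02 between the scaffolds under DESeq2 size factors. Variation between cultures of 1 group was not measured. The 3 comparisons share libraries, so they are not independent of each other.

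**Figure D2:**
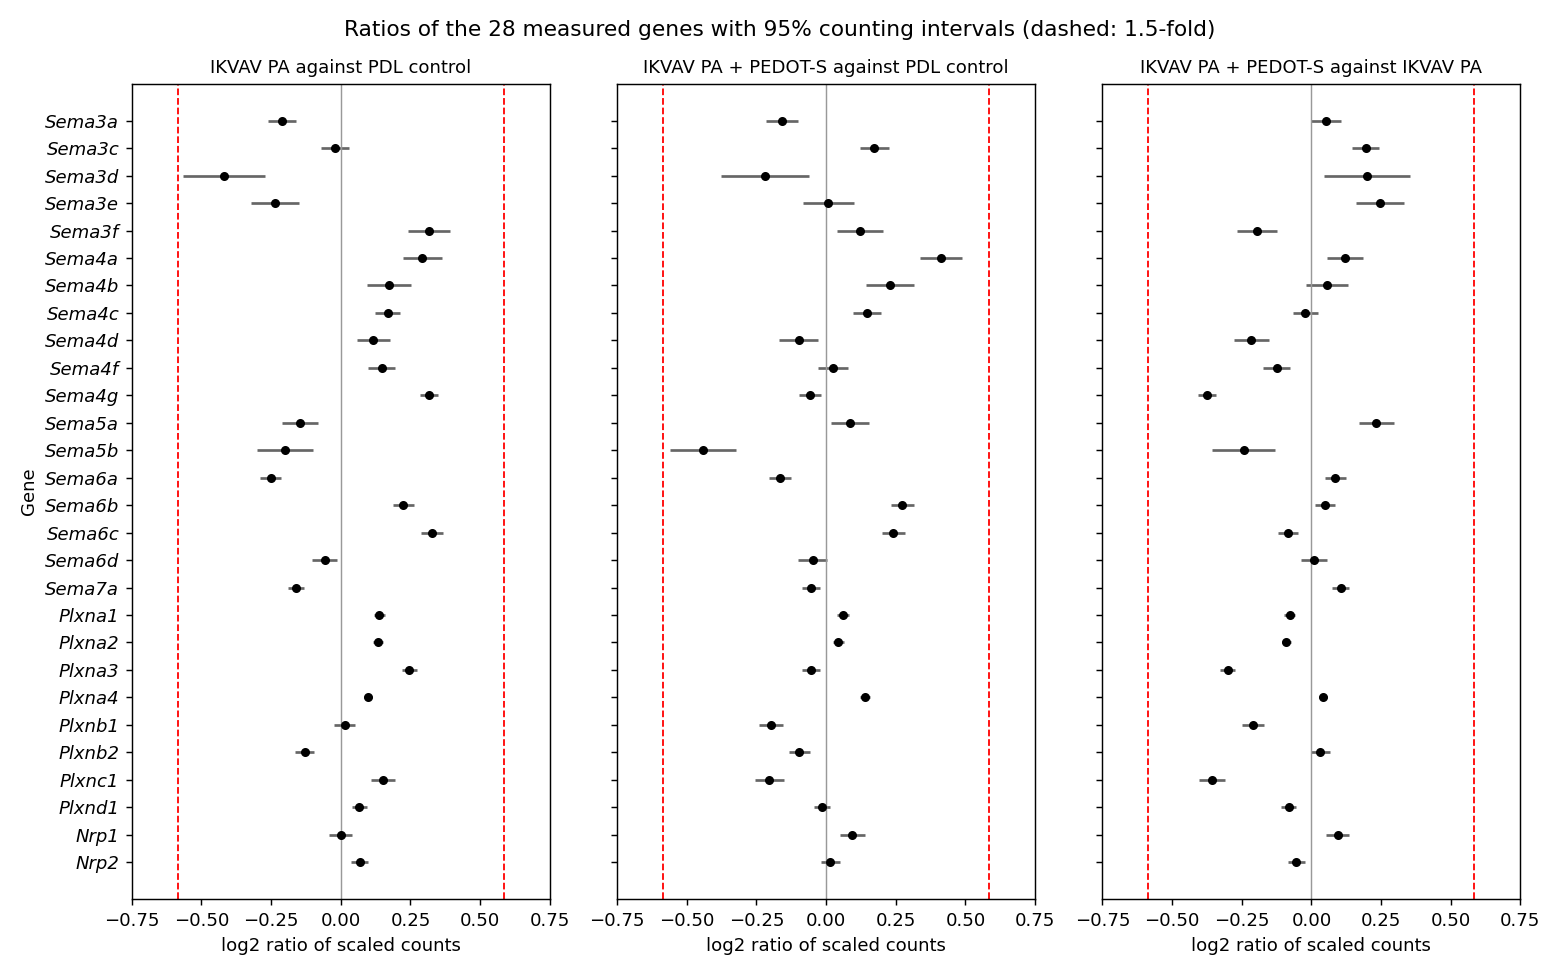
Log2 ratio of scaled counts for each of the 28 measured genes in the 3 comparisons, with 95% counting intervals as bars and dashed lines at 1.5-fold. Every interval lies between the dashed lines, and all 6 Sema4 genes and all 4 Plxna genes lie to the right in IKVAV PA against PDL.

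Among the secreted class 3 semaphorins, Sema3c was the most abundant and took 39.9% to 43.4% of the class per kb. It had 8289, 5959 and 5376 counts in IKVAV PA, IKVAV PA + PEDOT-S and PDL, or 66.5, 76.1 and 67.5 CPM. The scaffold with PEDOT-S was thus the highest, by 1.145-fold over IKVAV PA (log2 ratio 0.19, interval 0.15 to 0.24) and by 1.13-fold over PDL, while IKVAV PA and PDL did not differ beyond counting error (-0.02, interval -0.07 to 0.03). Sema3a, the classical repellent of cortical axons, stood at 57.5, 59.6 and 66.5 CPM in the same order of libraries. It was highest in PDL, with log2 ratios of -0.21 and -0.16 for the scaffolds without and with PEDOT-S. Sema3e, which can bind Plxnd1 without a neuropilin, stood at 20.5, 24.4 and 24.2 CPM. It was lowest in IKVAV PA and nearly equal in the other libraries.

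Sema3d was the least abundant measured gene, at 840, 606 and 718 counts or 6.74, 7.74 and 9.01 CPM. The order ran from IKVAV PA up to PDL, and the ratio of IKVAV PA to PDL was the lowest of the 28 in that comparison (1.34-fold lower, log2 ratio -0.42, interval -0.56 to -0.27). Sema3f, which acts mainly through Nrp2, went the other way. It stood at 34.9, 30.5 and 28.05 CPM, with IKVAV PA the highest and 1.25-fold above PDL (0.32, interval 0.24 to 0.39). Sema3a, Sema3c, Sema3d and Sema3e are neighbours in a broad stretch of chromosome 5, from the start of Sema3d at 12383385 to the end of Sema3c at 17730268 (GRCm38). Their levels per kb nonetheless differed, with Sema3c 9.01 to 11.9 times as high as Sema3d.

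The other class 3 genes were nearly absent. Sema3b had 93, 69 and 69 counts, or 0.746, 0.882 and 0.866 CPM, and differed by less than counting error in all comparisons. Its neighbour Sema3f on chromosome 9 was 29.8 to 43.0 times as high per kb. Sema3g, a semaphorin known from endothelial cells, had 22, 4 and 11 counts, or 0.177, 0.0511 and 0.138 CPM. Its interval between the scaffolds was wide (-3.79 to -0.23). Of 8 endothelial markers only 3 were measured, and their summed level was 3.37 to 6.55 CPM.

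The class 4 semaphorins are transmembrane proteins, several of which bind class B plexins. All 6 were measured, and all 6 had an interval above equal levels in IKVAV PA against PDL, with log2 ratios from 0.12 (Sema4d) to 0.32 (Sema4g). In this comparison 28.1% of all genes, and 31.9% of those with a mean of at least 10 CPM, lay above. The count of 6 held under each library scaling and with a trend on GC content and length removed. Their summed level was 450 CPM in IKVAV PA, 401 in IKVAV PA + PEDOT-S and 385 in PDL. Against PDL, the library with PEDOT-S had 3 of the 6 above and 2 below, where 28.6% of all genes lay above and 28.5% below. Sema4c was the most abundant per kb on average, at 86.9, 85.6 and 77.4 CPM, so both scaffolds lay above PDL. An antisense gene overlaps 7.27% of its exonic bases, but had only 295, 204 and 171 counts against 10830, 6701 and 6162. The leading place depends on library and length. Sema4g lay above Sema4c in IKVAV PA (19.9 against 18.9 CPM per kb), and on average with the longest coding transcript as length (32.5 against 21.4).

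Sema4g and Sema4a showed the widest spread in this class. Sema4g stood at 172, 133 and 138 CPM, so that IKVAV PA stood above the other libraries, which lay close together. With PEDOT-S it was 1.30-fold lower than in IKVAV PA (-0.37, interval -0.41 to -0.34), the lowest ratio of the 28 in that comparison. Sema4a stood at 38.8, 42.1 and 31.6 CPM, and here PDL stood below both scaffolds. Its ratio of 1.33-fold for IKVAV PA + PEDOT-S against PDL (0.41, interval 0.34 to 0.49) was the highest of the 28 in any comparison. Sema4d, a ligand of Plxnb1, stood at 47.2, 40.6 and 43.5 CPM, highest in IKVAV PA and lowest with PEDOT-S. Sema4b stood at 29.2, 30.4 and 25.9 CPM and Sema4f at 75.4, 69.2 and 68.1 CPM.

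The class 5 genes, transmembrane semaphorins with thrombospondin repeats, were weakly expressed, and their members differed in order. Sema5a had 4890, 3611 and 3460 counts and stood at 39.2, 46.1 and 43.4 CPM, lowest in IKVAV PA. Sema5b stood at 14.9, 12.6 and 17.1 CPM, lowest with PEDOT-S and 1.36-fold below PDL there (-0.44, interval -0.56 to -0.32). That was the lowest ratio of the 28 in any comparison. Their ratio per kb, Sema5a over Sema5b, was 1.001 in IKVAV PA, 1.39 with PEDOT-S and 0.965 in PDL.

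Class 6 semaphorins are transmembrane ligands of class A plexins and can also act as receptors. Sema6b was the most abundant per kb, with 15854, 10309 and 8677 counts or 127, 132 and 109 CPM, and Sema6c stood at 130, 122 and 104 CPM. Both were higher in each scaffold library than in PDL, with log2 ratios of 0.22 and 0.27 for Sema6b and 0.33 and 0.24 for Sema6c. Sema6a went the other way, at 110, 117 and 131 CPM (-0.25 and -0.17). Sema6b was therefore 2.56 and 2.50 times as high as Sema6a per kb in the scaffold libraries and 1.84 times in PDL. Sema6d stood at 78.1, 78.6 and 81.3 CPM, nearly equal in all libraries.

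Sema7a, the only class 7 semaphorin, is held to the membrane by a lipid anchor and binds Plxnc1 and beta-1 integrins. It had 21105, 14266 and 15080 counts, which gave 169, 182 and 189 CPM, or 51.3, 55.3 and 57.4 CPM per kb, lowest in IKVAV PA (-0.16 against PDL, interval -0.19 to -0.13). Plxnc1 had 11350, 5570 and 6530 counts or 91.1, 71.2 and 82.0 CPM, and was highest in IKVAV PA and lowest with PEDOT-S. Between the scaffolds Plxnc1 was 1.28-fold lower with PEDOT-S (-0.36, interval -0.40 to -0.31), next to Sema4g in size. Ligand and receptor thus had opposite orders between the scaffolds, and the ratio of Sema7a to Plxnc1 per kb was 4.71 in IKVAV PA, 6.48 with PEDOT-S and 5.85 in PDL. Itgb1, the beta-1 integrin, stood at 76.4, 78.9 and 111 CPM, within the 1.5-fold bound in all comparisons.

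The class A plexins, signalling partners of the neuropilins and receptors of class 6 semaphorins, were the most abundant receptors. Their summed level was 2029 CPM in IKVAV PA, 1937 with PEDOT-S and 1846 in PDL. Plxna1 led per kb at 53.5, 50.7 and 48.6 CPM per kb, followed by Plxna4 at 47.4, 48.8 and 44.3. Plxna1 overlapped the range of Sema7a, so the order of these genes differed between libraries, with Plxna1 at the top in IKVAV PA and Sema7a in the others. An antisense gene covers 10.7% of the exonic bases of Plxna1, which makes its values uncertain, although that gene had only 183, 60 and 73 counts against 60341, 35907 and 35051. With the longest coding transcript as length, Plxna2 moved from the 4th to the 2nd place of all genes and Nrp1 from the 16th to the 10th, so ranks between such genes depend on the length used.

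All 4 class A plexins had an interval above equal levels in IKVAV PA against PDL, from 0.10 for Plxna4 to 0.25 for Plxna3, where 28.1% of all genes and 31.9% of those with a mean of at least 10 CPM lay above. Plxna3 stood at 256, 208 and 216 CPM, so that IKVAV PA stood above the others, and it was 1.23-fold lower with PEDOT-S than in IKVAV PA (-0.30, interval -0.33 to -0.27). Plxna4 stood at 668, 688 and 624 CPM, highest with PEDOT-S. Plxna2 stood at 621, 583 and 566 CPM and Plxna1 at 484, 459 and 440 CPM, and both ran from PDL up to IKVAV PA. Of the class A level per kb, Plxna1 took 31.6% to 31.7% and Plxna2 21.3% to 21.5%. The share of Plxna3 was 19.2%, 16.5% and 17.9% in the 3 libraries and that of Plxna4 27.96%, 30.5% and 28.9%. These shares had opposite orders, but shares of 1 sum are tied to each other and those of Plxna1 and Plxna2 hardly changed. The levels of Plxna3 and Plxna4 were not in opposite order, as both were higher in IKVAV PA than in PDL.

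Among the class B plexins, receptors of class 4 semaphorins, Plxnb2 was the more abundant per kb and Plxnb3 was nearly absent. Plxnb2 had 17033, 10942 and 11908 counts and stood at 137, 140 and 149 CPM, highest in PDL. Plxnb1 stood at 117, 101 and 116 CPM, lower with PEDOT-S than in the other libraries (-0.21 and -0.20). Plxnd1, the receptor of Sema3e, had 30715, 18239 and 18740 counts and stood at 246, 233 and 235 CPM and spanned only 1.06-fold. Its log2 ratio of 0.07 in IKVAV PA against PDL turned to -0.04 with the GC and length trend removed. Between the scaffolds 6 of the 8 measured plexins had an interval below equal levels with PEDOT-S and 1, Plxna4, above, where 28.5% of all genes lay below and 31.4% above. With the trend on GC content and length removed, 3 lay below and 2 above, so the count depends on that correction.

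The neuropilins, which bind class 3 semaphorins and VEGF, varied little. Nrp2 had 23525, 14236 and 14339 counts or 189, 182 and 180 CPM. Nrp1 stood at 96.1, 103 and 96.2 CPM, and the largest log2 ratio of either gene was 0.09. Nrp1 was highest with PEDOT-S, while IKVAV PA and PDL did not differ beyond counting error (-0.00, interval -0.04 to 0.04). Nrp2 took 59.4% to 61.9% of the 2 genes' level per kb of merged exons. With the longest coding transcript as length the 2 genes were level, at 27.3 CPM per kb each on average. Vegfa, a VEGF form bound by neuropilins, stood at 55.8, 71.8 and 52.0 CPM and did not pass the 1.5-fold bound. Vegfb, at 34.8, 37.6 and 32.2 CPM, and Vegfc, at 1.20, 1.44 and 1.54 CPM, are also listed neuropilin ligands and did not pass it either.

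Plxnb3, a plexin known from oligodendrocytes, was the exception in size, at a level too low for the filter. It had 5 counts in IKVAV PA, 18 with PEDOT-S and 22 in PDL, or 0.0401, 0.230 and 0.276 CPM. Without the filter it would count as lower in IKVAV PA than in PDL (6.88-fold, log2 interval -4.54 to -1.35) and as higher with PEDOT-S than without (5.73-fold, interval 1.04 to 4.30). Without the filter, 2.67% of 31695 genes were lower in the former comparison and 0.734% of 31321 genes were higher in the latter. The other shares without it were 1.53% higher in IKVAV PA than in PDL, 0.828% higher and 3.63% lower with PEDOT-S than in PDL, and 3.59% lower with PEDOT-S than in IKVAV PA. The sums of the oligodendrocyte lists did not share this full order. Summed precursor markers stood at 19.2, 15.0 and 61.0 CPM, and summed myelin markers at 71.7, 104 and 58.6 CPM, each in the order IKVAV PA, IKVAV PA + PEDOT-S and PDL. In IKVAV PA against PDL 4 of 5 precursor markers were lower by more than 1.5-fold and 0 higher. By the same rule 3 of 9 measured myelin markers were higher there and 0 lower. Between the scaffolds 6 of 9 measured myelin markers were higher with PEDOT-S and 0 lower, whereas 2 of 5 precursor markers were lower and 0 higher. Of all genes compared, 3.41% were lower in the former comparison and 0.339% higher in the latter. The shares in the opposite directions were 0.540% and 2.02%. Whether Plxnb3 moved with these cells was not tested.

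In both comparisons that include the IKVAV PA library, the ratios of the families moved with the GC content of their transcripts. Spearman's rho between the log2 ratio and the GC content of the longest coding transcript was 0.51 across the 28 genes in IKVAV PA against PDL, 0.20 for PEDOT-S relative to PDL and -0.47 between the scaffolds. These are correlations across genes that share the same pair of libraries. Over 12483 protein-coding genes the values were 0.21, 0.17 and -0.01. The low end was formed by Sema3d (39.2% GC), Sema3a, Sema3e and Sema3c (42.7%), and the high end by Sema6b (63.5%) and Sema6c (63.5%). Not every gene followed, as Sema5b (60.2%) had a log2 ratio of -0.20 and Plxnb2 (57.3%) one of -0.13 in IKVAV PA against PDL. With the trend of all protein-coding genes on GC content and length removed, the ratio of Sema3d to PDL in IKVAV PA went from -0.42 to -0.37 and that of Sema6c from 0.33 to 0.20. Whether GC content bears on how these libraries were made or read was not tested.

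**Figure D3:**
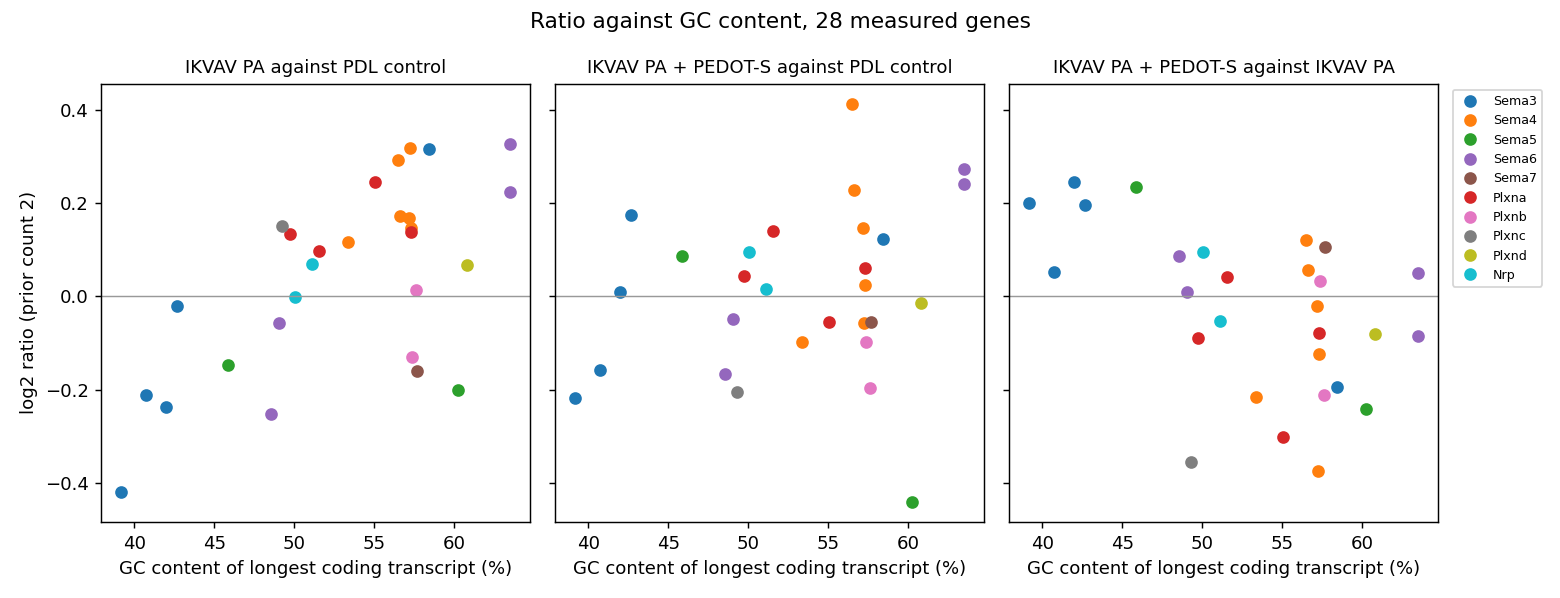
Log2 ratio of each of the 28 measured genes against the GC content (%) of its longest coding transcript, 1 panel per comparison, coloured by family. Points run upward in IKVAV PA against PDL (rho 0.51) and downward between the scaffolds (rho -0.47).

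The wider pathway was described with 74 listed genes, of which 68 were measured. In IKVAV PA against PDL 0 were higher and 3 lower by more than 1.5-fold, with PEDOT-S 0 and 6 relative to PDL, and between the scaffolds 0 were higher and 2 lower with PEDOT-S. Over all genes compared, 3.41%, 3.75% and 2.02% were lower, and the counts of 3 and 2 of 68 lie near these shares. The corresponding medians were 0.00, 0.04 and 0.02. All of the genes past the bound were weakly expressed. Erbb2, a receptor tyrosine kinase that pairs with Plxnb1, had 71, 62 and 184 counts (-1.98 and -1.51 against PDL). Kdr, a VEGF receptor that can join semaphorin receptor complexes, had 241, 127 and 296 counts (-0.94 and -1.18). Mmp14, a membrane metalloprotease able to shed semaphorins, had 438, 268 and 608 counts (-1.11 and -1.15).

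Another 3 passed the bound only in comparisons with the PEDOT-S library. Flt1, a VEGF receptor, had 115, 25 and 91 counts (-1.76 against PDL and -1.47 against IKVAV PA). Itga1, an integrin chain that pairs with Itgb1, had 372, 117 and 315 counts (-1.39 and -0.99). Rras, a small GTPase regulated by plexins, had 131, 43 and 117 counts, and passed the bound against PDL (-1.38) but not against IKVAV PA (-0.91). Kdr and Flt1 are also on the endothelial marker list, and pericyte and smooth muscle markers summed to 35.5, 15.3 and 92.4 CPM in the same order. Meningeal fibroblast markers summed to 36.2, 21.6 and 68.6 CPM. The part of these cell types in the lower values was not tested.

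Abundant partners inside the cell stayed within the bound. None of the 5 collapsin response mediators, which relay Sema3a signals to microtubules, passed it in any comparison. Their medians were 0.13, 0.05 and 0.01, and Dpysl2, the founding member, stood at 531, 539 and 465 CPM. Of 38 measured effectors Rras alone passed. In any comparison 6.53% of all genes compared passed, and 1.51% of those with a mean of at least 10 CPM. Counts of 0 in 5 and 1 in 38 lie near these shares and are not a result about these genes. L1cam, an adhesion protein that joins Nrp1 in the Sema3a receptor, stood at 838, 745 and 795 CPM and Fyn, a kinase in the Sema3a response, at 291, 319 and 271 CPM. Pan-neuronal markers had medians of 0.03, 0.05 and -0.04. Cell cycle genes had medians of -1.60 and -1.73 against PDL. All 7 were lower by more than 1.5-fold in each scaffold library, where 3.41% and 3.75% of all genes compared were lower.

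**Figure D4:**
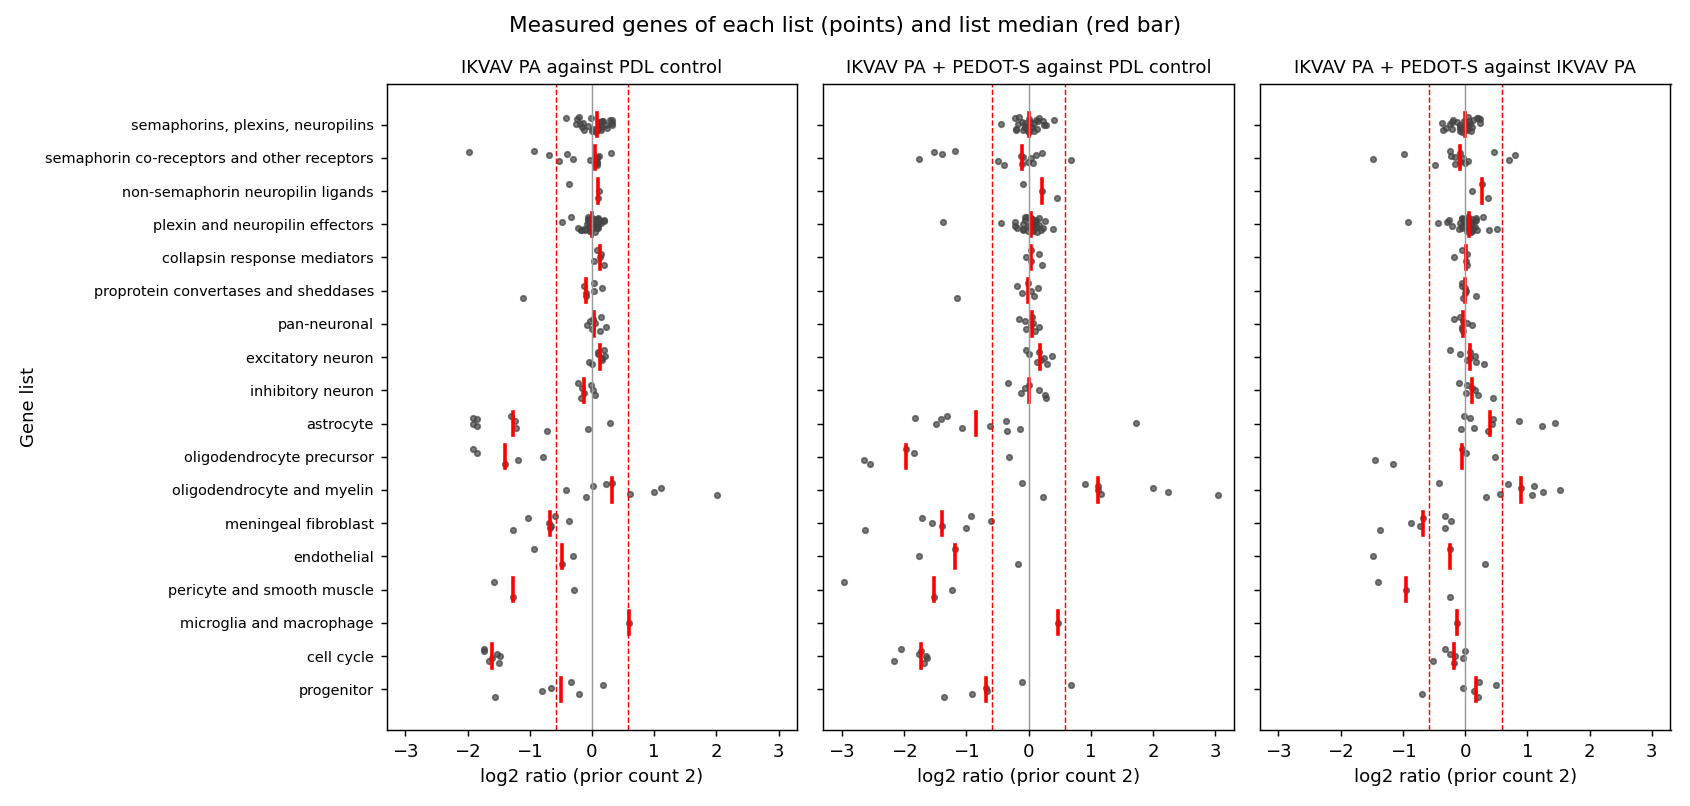
Log2 ratio of every measured gene (points) with the list median (red bar) for the semaphorin families, 5 lists of pathway partners and 12 lists of cell type markers, with dashed lines at 1.5-fold. The semaphorin families, effectors, collapsin response mediators and neuronal lists cluster near 0. Most astrocyte genes and the oligodendrocyte precursor, pericyte and cell cycle lists spread to the left in both comparisons with PDL, whereas Gfap of the astrocyte list lies to the right. Most but not all myelin genes lie to the right in these comparisons.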

How the data were processed

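RNA-seq of cultured cortical neurons gave 3 libraries, 1 per group, taken from titles and library names. The authors deposited whole-number counts per Ensembl gene, which are not normalised. Per the labels' protocols, libraries were made from total RNA with a TruSeq Total RNA kit, although the molecule field reads polyA RNA. Per the submitters' processing notes, the tools were STAR 2.7.5, HTSeq 2.0.2, cutadapt 4.2 and DESeq2 1.14.1, with build mm10. The sources used here name neither their order nor the annotation or strand setting, so reads of overlapping antisense genes cannot be told apart.

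GENCODE M21 (GRCm38) supplied symbols, exon lengths and coordinates for 54165 of 54232 identifiers. Upstream sequences came from RefSeq (GRCm38.p6). Counts were scaled by TMM in edgeR 4.0.16 (R 4.3.3), with factors of 1.002 for IKVAV PA, 0.990 with PEDOT-S and 1.008 for the control. Genes at 1 CPM or more in at least 1 library were compared (13884). Each ratio of scaled counts has a 95% exact (Clopper-Pearson) interval, which covers only counting error, as each group has 1 library. PCR copies could not be removed by molecular identifiers, and the interval makes no allowance for them. A gene was called when the bound nearest to equal levels lay beyond 1.5-fold. Log2 ratios use a prior count of 2. The procedure was tested on simulated data that held counting error only. Such data cannot show how it performs where cultures differ or PCR copies are present.

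The gene families and the lists were chosen with earlier results of these data known. All family members were to be named, with full values for the most abundant per kb of each class and for any past the bound, and of the pathway genes all past the bound. Other genes given with values were chosen after these were seen. The alternatives comprised total counts, size factors of DESeq2 1.42.0, factors from protein-coding genes, other filters, a 2-fold bound, thinning to the smallest total, a prior count of 0.5, and, added after seeing the data, removal of a trend on GC content and length, and the longest transcript as length.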

Additional observations from a re-analysis of the deposited data

How the results depend on the processing

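The counts of 0 genes past 1.5-fold kept their value under all alternatives but one. With no expression filter, 1 gene, Plxnb3, counted as lower in IKVAV PA against PDL and 1, again Plxnb3, as higher between the scaffolds. Removing the trend on GC content and length, a choice made after seeing the data, left 8 genes with an interval below equal levels between the scaffolds and 14 above, against 13 below and 10 above without it, so the balance turned. Under DESeq2 size factors 12 lay below and 13 above. Between the scaffolds the fitted trend lay below 0 for all 28, so removing it raised every log2 ratio. What the trend reflects was not tested. The medians of the 28 moved by less than the typical half-width of an interval (0.0441 on the log2 scale) under every alternative run. No gene whose interval excluded equal levels changed direction under DESeq2 size factors, total counts, protein-coding factors or thinning, and the largest move of a gene was 0.03 on the log2 scale. No scaling moved the median of all genes by more than 0.03. With the GC and length trend removed, Plxnd1 in IKVAV PA against PDL turned from 0.07 to -0.04, and Plxna1 between the scaffolds went from -0.08 to 0.00. Levels per kb changed with the length used, by the largest ratio for Nrp1, from 10.05 to 27.3 CPM per kb. No paired analysis was possible because each group has 1 library, all of them repeat 3, and leaving out a replicate would leave a group empty. Depth limits only Sema3b, Sema3g and Plxnb3, with at most 93 counts.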
